A study of Mus musculus with 16 samples.

Results

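Interferon-responding CD8 T cells of the tumor-draining lymph node were the subject, picked out of 1 library by what they transcribed. The series profiled CD8+CD44+ T cells, sorted from 2 tissues of C57BL/6 mice with melanoma-associated vitiligo, the node that drains the tumor site and the vitiligo skin of the same mice, at 16 weeks of age and 45 days after tumor surgery. Single cells were read for RNA and for T cell receptors (TCR). All cells described here come from mice in that one condition, and each tissue gave 1 library per assay, read on 4 lanes that share its cells. How many mice were pooled is not stated in the labels. A cell was a member if it held at least 1 unique molecular identifier (UMI, 1 captured transcript) for at least 3 of 7 selecting genes, which are Rsad2, Ifit1, Ifit3, Ifit3b, Isg15, Cmpk2 and Oasl2. This gave 133 members among 3266 lymph node cells, or 4.07%. The 2970 cells with at most 1 of the 7 genes were the comparison cells, and the 163 cells with exactly 2 were left out.

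Type I interferons bind the receptor pair IFNAR1 and IFNAR2, which signals through the kinases TYK2 and JAK1 to a complex that includes STAT2 and IRF9. The complex binds the interferon-stimulated response element, a short repeat of GAAA, and switches on many antiviral genes together. Type II interferon, IFN-γ, signals through JAK1 and JAK2 and shares many of these targets. In melanoma-associated vitiligo, IFN-γ made by CD8 T cells is known for its part in the loss of melanocytes.

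The selecting genes are antiviral. Rsad2 encodes viperin, which makes a chain-terminating nucleotide, and its neighbour Cmpk2 encodes a mitochondrial nucleotide kinase. Ifit1, Ifit3 and Ifit3b encode proteins of the family that binds foreign RNA, Isg15 a ubiquitin-like modifier, and Oasl2 a protein related to the oligoadenylate synthetases. The promoters of 5 of the 7 genes hold the core of the response element, and their windows are shown because the sequence is what these genes share beyond the cells they were seen in. The windows are from RefSeq promoters on GRCm38.p6, 5′ to 3′ on each gene's own strand, with the core in capitals. The core was searched as GAAANNGAAA on both strands, from 250 bases before to 50 bases after the gene start, and overlapping matches run together. Cmpk2 and Oasl2 had no match in that stretch.

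Rsad2 (chr12:26456513-26456592, minus strand): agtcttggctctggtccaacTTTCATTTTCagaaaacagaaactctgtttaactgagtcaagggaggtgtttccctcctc

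Ifit1 (chr19:34640765-34640844, plus strand): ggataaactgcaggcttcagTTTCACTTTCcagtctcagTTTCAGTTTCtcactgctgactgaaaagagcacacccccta

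Ifit3 (chr19:34583353-34583432, plus strand): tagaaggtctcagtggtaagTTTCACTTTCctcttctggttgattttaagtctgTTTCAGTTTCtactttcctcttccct

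Isg15 (chr4:156200837-156200916, minus strand): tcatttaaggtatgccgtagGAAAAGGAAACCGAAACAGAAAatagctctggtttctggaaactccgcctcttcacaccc

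The Ifit3b window (chr19:34607749-34607828, plus strand) has the same letters as that of Ifit3. The 2 genes are near-identical copies, so how the authors' counting divided reads between them is uncertain.

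Each selecting gene was also looked at in cells chosen by the other 6 alone. Isg15 was seen in 85.5% of the 76 cells with 3 or more of the other genes (exact binomial 95% interval 75.6 to 92.5), against 11.5% of the 3077 cells with 0 or 1 of them (10.4 to 12.7). Ifit3 was seen in 69.6% of such cells, against 6.66%, and Ifit1 in 63.2%, against 4.07%. Oasl2 was seen in 30.3%, against 3.93%, Ifit3b in 27.9%, against 1.17%, Rsad2 in 26.6%, against 0.972%, and Cmpk2 in 22.3%, against 1.97%. The intervals cover counting error between cells of 1 library only. Members were also deeper than comparison cells, and what depth adds to these shares was not tested. These shares describe how the genes go together in single cells and, since the rule used them, they carry no test. No cell type that should lack these genes was at hand, so the share that free RNA gives was not measured.

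**Figure D1:**
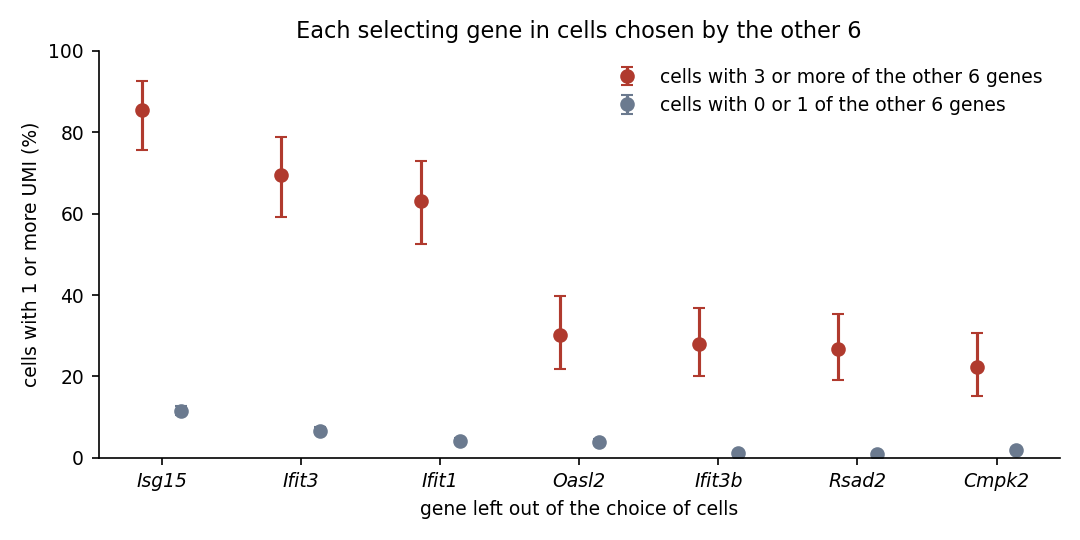
Percent of cells with 1 or more UMI of each selecting gene, in cells with 3 or more (red) and with 0 or 1 (grey) of the other 6 genes. Points are shares and bars are exact binomial 95% intervals, which cover counting error only; every red point lies above its grey point, from 22.3% against 1.97% for Cmpk2 to 85.5% against 11.5% for Isg15.

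Within the members, Isg15 was seen in 122 cells, Ifit3 in 105, Ifit1 in 98, Oasl2 in 57, Ifit3b in 45, Rsad2 in 42 and Cmpk2 in 39. Most members sat close to the threshold, with 64 cells at 3 genes, 42 at 4, 17 at 5, 7 at 6 and 3 at all 7. Cells just inside, with 3 genes, held a median of 4.5 UMIs of the selecting genes. Cells just outside, with 2 genes, held a median of 2.0. Isg15 was the only selecting gene seen in 248 cells, so a single gene would have drawn a wider class. Depth bears on the rule. Members had a median of 5274 UMIs and 1639 genes per cell (UMI range 1149 to 11721), against 4367 UMIs and 1436 genes in comparison cells (461 to 12576). The mitochondrial share was alike, with a median of 2.53% in members and 2.59% in comparison cells. When each cell was first thinned to 1500 UMIs, 31 cells passed the rule. Thinning only removes UMIs, so these had to be members at full depth.

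The sort genes put the members among CD8 T cells. Cd8a and Cd8b1, the chains of the CD8 coreceptor, were seen in 91.0% and 97.7% of members, against 82.3% and 96.5% of comparison cells. Cd3e, a chain of the CD3 signalling complex, reached 914 counts per 1e6 UMIs (CPM) in members and 912 CPM in comparison cells. Cd44, the surface protein used for the sort, was at 60.0 CPM in members and 72.3 CPM in comparison cells.

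Genes outside the rule were compared by summing UMIs over the 133 members (733325 UMIs) and over the 2970 comparison cells (12968808 UMIs). A log2 ratio is that of CPM in members over comparison cells, with 1 CPM added to both, and its range is the exact 95% interval of the ratio of counts without that addition. With 1 library there is no replicate and no test: the intervals cover counting error between these cells only. The genes compared come from the same cells and library as the selecting genes. Of 8906 genes with at least 50 UMIs, 149 (1.67%) were at least 2-fold higher in members and 348 (3.91%) at least 2-fold lower, and the median log2 ratio of all of them was -0.01. Of the 149 higher genes, 63 belonged to the interferon lists, and none of the 348 lower genes did, beside 115 of all 8906 genes compared. The lists were chosen with earlier results of these data known. The lower count rests on thin counts: 343 of the 348 had 10 or fewer UMIs in members, with a median of 2.

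The interferon lists hold 117 genes of the table outside the 7, in 10 families from antiviral effectors to surface proteins. They took a median of 2.18% of a member's UMIs (range 0.974% to 6.47%), against 1.26% in comparison cells (0% to 5.35%). The ranges overlap: 147 comparison cells (4.95%) stood at or above the median of the members, and 9 members stood below the median of the comparison cells. Cells with 2 selecting genes lay between, at 1.69%. Of 115 interferon-list genes with enough counts, 107 had log2 ratios above 0 and the median was 1.14.

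**Figure D2:**
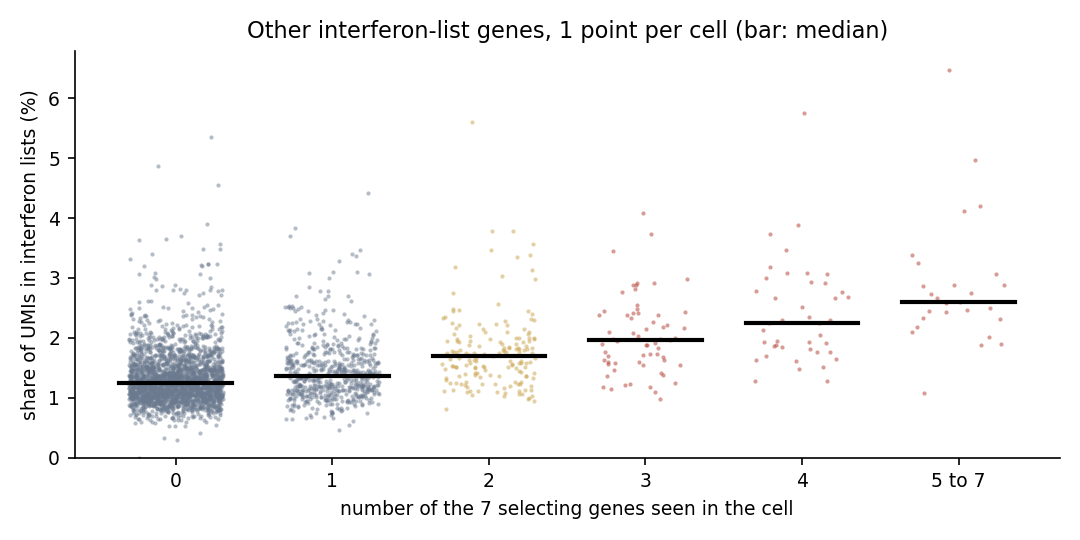
Share of each cell's UMIs in the interferon lists, without the 7 selecting genes, by the number of selecting genes seen; 1 point is 1 cell and bars are medians. The medians were 1.24%, 1.36%, 1.69%, 1.96% and 2.24% for 0, 1, 2, 3 and 4 genes, and comparison cells (grey) and members (red) overlap.

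Among the antiviral effectors, 22 of 36 measured genes were at least 2-fold higher in members, 0 were 2-fold lower and the median log2 ratio was 1.4. Isg20, an RNA exonuclease, was seen in 36.1% of members, against 5.99% of comparison cells, and stood at 116 CPM in members, against 15.04 CPM in comparison cells (log2 ratio 2.87, 2.56 to 3.32). Rtp4, a zinc-finger protein known to limit RNA viruses, was seen in 75.2% of members, against 15.8% of comparison cells (2.47, 2.25 to 2.74). Oas1a, an oligoadenylate synthetase that senses double-stranded RNA, had a log2 ratio of 2.51 (1.997 to 3.40) on 25 UMIs in members. Ifi27l2a, among the more abundant genes of the list, was at 1141 CPM in members and 410 CPM in comparison cells (1.48, 1.37 to 1.58). Bst2, or tetherin, which holds budding virus at the cell surface, was at 419 CPM in members and 147 CPM in comparison cells. Others differed little: Shisa5 had a log2 ratio of 0.35, and Ifi27 had -0.19 with an interval that includes 0.

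The sensors of foreign nucleic acid and their adaptors had 6 of 11 measured genes at least 2-fold higher and a median of 1.30. Dhx58, which encodes the RNA helicase LGP2, was at 50.5 CPM in members and 6.25 CPM in comparison cells (2.83, 2.41 to 3.59). Zbp1, a sensor of Z-form nucleic acid that can start necroptosis, was seen in 60.2% of members and 14.9% of comparison cells (2.52, 2.29 to 2.81). Ifih1 and Ddx58, which encode the RNA sensors MDA5 and RIG-I, had log2 ratios of 2.15 and 1.47. The adaptors downstream had smaller values: Mavs was at -0.72 (-2.44 to 0.45) on 5 UMIs in members, and Tmem173, which encodes STING, at 0.37 (-0.06 to 0.78).

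Genes that attach or remove ISG15 were higher in members throughout, with all 5 measured genes above 0 and 4 at least 2-fold higher. Usp18, the protease that removes ISG15 and also damps the type I receptor, was at 165 CPM in members and 27.6 CPM in comparison cells (2.54, 2.27 to 2.88). Uba7, the activating enzyme of the same pathway, had a log2 ratio of 1.01, and Herc6, its ligase in mouse, 1.29. Of the 7 feedback inhibitors, Usp18 and Cish were at least 2-fold higher, whereas Socs1, which blocks JAK kinases, had a log2 ratio of 0.54 (0.20 to 0.87) and Socs3 had -0.17 (-1.07 to 0.59).

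Interferon-inducible GTPases, which attack the vacuoles of microbes inside cells, were above 0 in 16 of 16 measured genes and at least 2-fold higher in 11. Iigp1 led them at 36.8 CPM in members and 5.55 CPM in comparison cells (2.53, 2.03 to 3.39), followed by Gbp6 at 2.20 (1.83 to 2.67) and Igtp at 1.92 (1.67 to 2.22). Several of these genes have close relatives, so reads may be divided among them with error. In the schlafen family, which includes regulators of T cell quiescence, 3 of 5 measured genes were at least 2-fold higher, and Slfn5 stood at 123 CPM in members and 18.4 CPM in comparison cells (2.67, 2.37 to 3.09). Slfn2, known in mouse to keep T cells quiescent, had a smaller log2 ratio of 0.58 (0.41 to 0.74). The PARP list, which also holds the ubiquitin ligase gene Dtx3l, had 5 of 9 at least 2-fold higher. The HIN-200 family of DNA sensors had 5 of 8 and the TRIM ubiquitin ligases 5 of 12. Some genes, such as Trim25, Usp18 and Ifih1, stand in more than 1 list, so the counts by list are not separate.

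The pathway's own parts were read by role. Transcription factors that interferon induces were higher in members: Irf7, which drives interferon gene transcription, was seen in 74.4% of members and 19.7% of comparison cells, at 278 CPM in members against 53.6 CPM (2.35, 2.14 to 2.60). Stat2 had a log2 ratio of 1.35 (0.75 to 2.03) and Irf9 one of 0.81 (0.43 to 1.19). Irf1, a target known best for IFN-γ, had 0.42 (0.15 to 0.69), and Irf3, which is held ready in cells without interferon, had -0.21 (-0.87 to 0.38). Of 7 measured receptors and kinases, 0 were 2-fold higher or lower, beside 1.67% and 3.91% of all genes compared. At those shares, 0 of 7 does not set the list apart. All 7 had values below 0, whereas 48.2% of all genes were above 0, and 5 of the 7 intervals include 0. Ifnar1 was at 47.7 CPM in members and 51.2 CPM in comparison cells, and Ifnar2 at 83.2 and 92.5 CPM. Ifngr1, a chain of the IFN-γ receptor, was lower at 184 CPM in members against 258 CPM in comparison cells (-0.49, -0.75 to -0.24), and Jak1 had -0.24 (-0.41 to -0.08). Of the interferon genes listed, Ifng was measured, with 12 UMIs or 16.4 CPM in members and 8.71 CPM in comparison cells (0.84, -0.09 to 1.77).

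Genes of MHC class I and antigen processing had small positive log2 ratios: all 24 measured genes were above 0, beside 48.2% of all genes compared, and 8 of the 24 had intervals that include 0. Of these 24 genes, 1 was at least 2-fold higher and the median was 0.31. Psmb9, a subunit of the immunoproteasome that interferon induces, was at 299 CPM in members and 195 CPM in comparison cells (0.61, 0.41 to 0.81). The class I heavy chain H2-K1 was at 2590 CPM in members and 2231 CPM in comparison cells (0.21, 0.15 to 0.28). Of the Ly6 and Ms4a surface genes, Ly6a, which encodes the marker Sca-1, stood out at 410 CPM in members and 119 CPM in comparison cells (1.77, 1.60 to 1.96). Ly6c2, a marker of memory CD8 cells, had a log2 ratio of 0.19 (0.12 to 0.26).

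**Figure D3:**
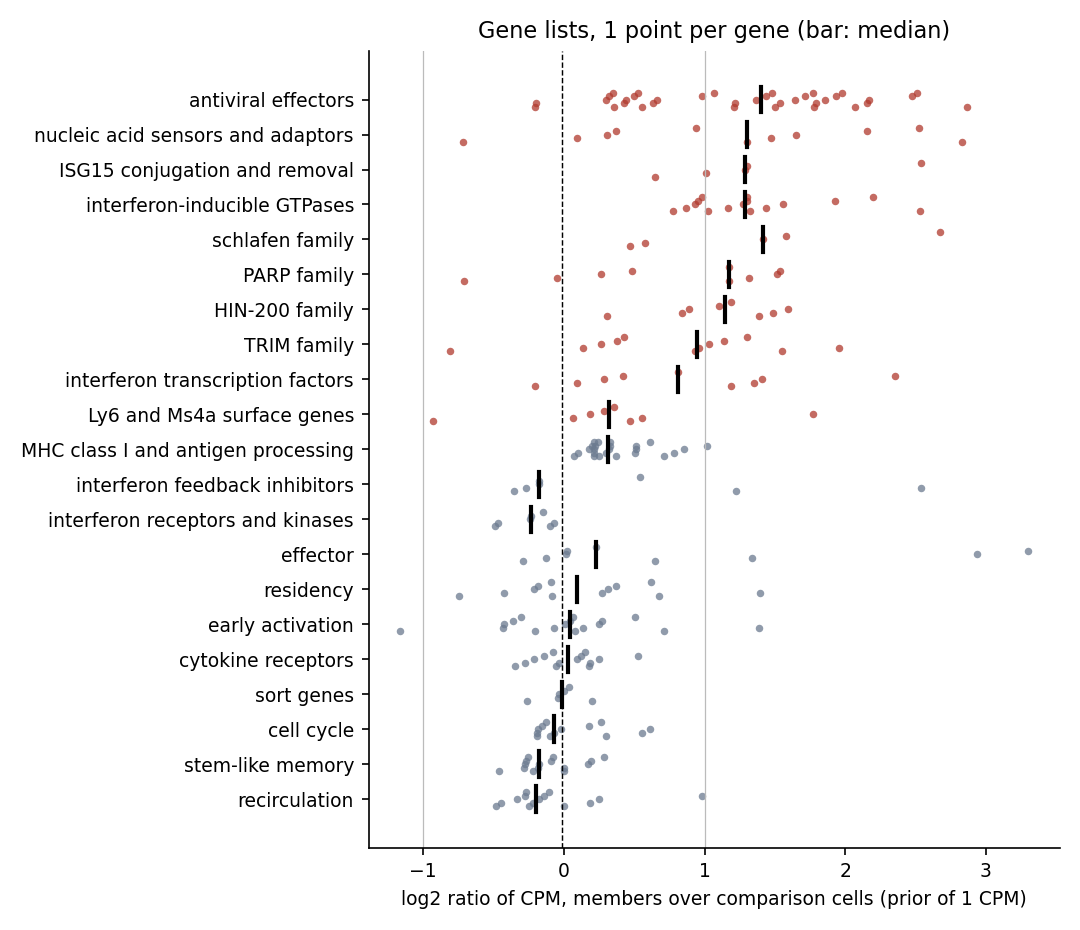
Log2 ratios of CPM in members over comparison cells for genes of 21 lists, 1 point per measured gene, with a bar at each list's median; red lists are those counted together as interferon lists. The dashed line is the median of all 8906 genes at -0.01 and the grey lines mark 2-fold; medians ran from 1.42 for the schlafen family to -0.24 for the receptors and kinases.

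The differences were not confined to cells past the threshold. Irf7 stood at 47.3, 76.4, 151, 199, 292 and 417 CPM in cells with 0, 1, 2, 3, 4 and 5 or more of the selecting genes. Usp18 stood at 24.9, 37.7, 79.6, 119, 170 and 250 CPM over the same classes, and Slfn5 at 18.2, 19.4, 45.6, 86.3, 135 and 179 CPM. These 3 genes were higher in every next class, as were Rtp4, Zbp1, Isg20, Bst2, Igtp and Oas3. Some other genes were not. Xaf1, a pro-apoptotic interferon target, was at 179 CPM at 4 genes and 119 CPM at 5 or more, Ifi27l2a at 1268 and 1066 CPM, and Ly6a at 436 and 429 CPM. Gbp6 was at 83.4 CPM at 3 genes, 74.0 CPM at 4 and 101 CPM at 5 or more. H2-K1 changed little, from 2212 CPM at 0 genes to 2418 CPM at 5 or more, with its highest value of 2704 CPM at 3 genes. Cells with more genes seen were also deeper, with median UMIs of 4302.5 at 0 genes, 4943 at 2 and 5077.5 at 4. With each cell thinned to 1500 UMIs and the classes set again on the thinned counts, members could fall into lower classes. Irf7 then stood at 61.5, 111, 277 and 344 CPM in cells with 0, 1, 2 and 3 or more genes seen.

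**Figure D4:**
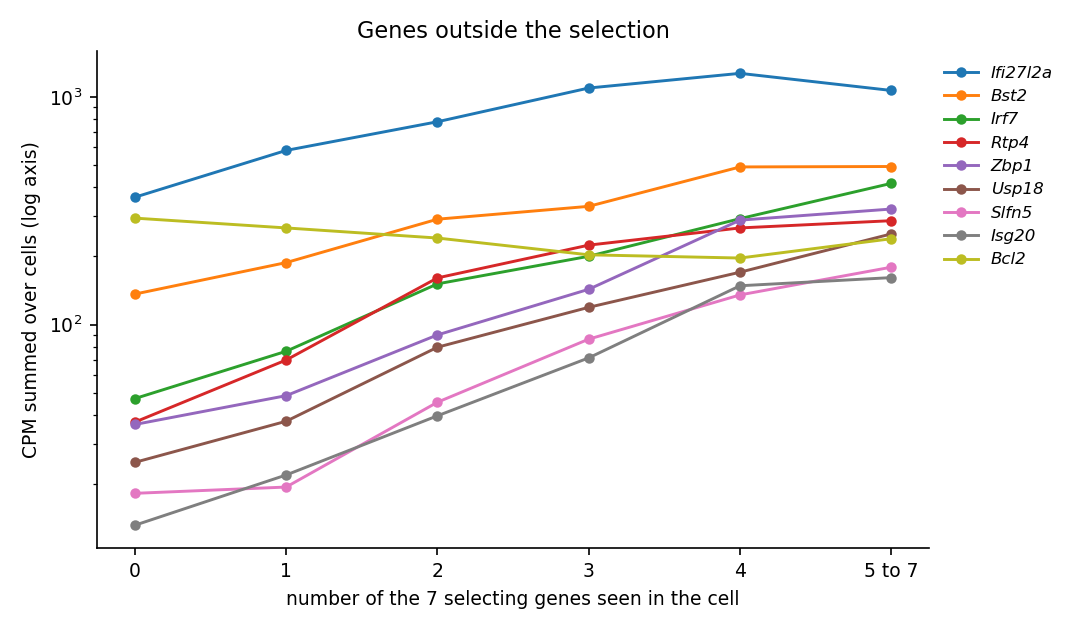
CPM of 9 genes outside the rule, summed over the cells with each number of selecting genes seen, on a log axis. Irf7 stood at 47.3 CPM with 0 genes and 417 CPM with 5 to 7, while Bcl2 stood at 293 CPM with 0 genes and 238 CPM with 5 to 7.

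Of the measured genes outside the interferon lists, the granzyme genes Gzmb and Gzma had the highest log2 ratios, mitochondrial and ribosomal protein genes left aside. Granzymes are serine proteases by which cytotoxic cells kill. Gzmb was at 135 CPM in members and 12.8 CPM in comparison cells (log2 ratio 3.30, 3.02 to 3.77), and Gzma at 188 CPM in members and 23.7 CPM in comparison cells (2.93, 2.69 to 3.28). Few cells carried them: 28 of 133 members held a UMI of either gene (21.1%, 14.5 to 29.0), against 134 of 2970 comparison cells (4.51%, 3.79 to 5.32). After thinning to 1500 UMIs the shares were 11.4% of members and 2.25% of comparison cells. A single member held 61 of the 138 Gzma UMIs, and without the cell highest in each gene the log2 ratios were 2.11 for Gzma and 2.67 for Gzmb. At full depth Gzma followed no steady order with the number of selecting genes, at 22.2, 29.4, 9.36, 339, 21.8 and 113 CPM from 0 to 5 or more genes. With each cell thinned to 1500 UMIs, the classes were set again on the thinned counts, so cells moved to lower classes. Gzma then rose in order, at 28.3, 69.4, 138.5 and 237 CPM with 0, 1, 2 and 3 or more genes seen. Gzmb did so too, at 13.5, 63.1, 77.9 and 279.6 CPM. The thinned class with 2 genes held 16 Gzma UMIs, against 8 in all cells with 2 genes at full depth. Part of the 16 thus came from members, and what this adds to the order was not tested. The highest thinned class rests on 11 UMIs of Gzma and 13 of Gzmb in 31 cells. With at least 4 selecting genes required, the log2 ratio of Gzma was 1.31 and that of Gzmb 2.15. Without barcodes carrying 2 or more receptor beta (TRB) sequences they were 1.96 and 2.89.

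Read the other way, members made up 16.6% of the 169 cells with Gzma or Gzmb (11.3 to 23.05) and 3.39% of the 3097 cells without (2.78 to 4.09). The interferon difference did not need the granzyme cells: among cells with neither gene, 105 members stood against 2836 comparison cells with a median log2 ratio of 1.13 over the 115 interferon-list genes. Among cells with either gene it was 0.83, with 28 members and 134 comparison cells. Other effector genes had smaller values. Prf1, which encodes the pore-forming perforin, was at 65.5 CPM in members and 64.8 CPM in comparison cells, and Ccl5, a chemokine of memory CD8 cells, at 2520 and 2747 CPM (-0.12, -0.19 to -0.06). Gzmk had a log2 ratio of 1.34, but 10 of its 16 UMIs in members came from 1 cell, and without that cell the value was 0.04.

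By list medians, the memory programme was close to that of the comparison cells. Of 14 measured genes of recirculation, 0 were 2-fold higher or lower, beside 1.67% and 3.91% of all genes compared. In that list 11 genes were below 0 and the median was -0.20. S1pr1, the receptor by which T cells leave lymph nodes, was lower at 99.5 CPM in members against 139.5 CPM in comparison cells (-0.48, -0.84 to -0.15). The stem-like list also had 0 of 15 genes past 2-fold and a median of -0.17. Within it Tcf7, a factor of self-renewing memory cells, had a log2 ratio of -0.19 (-0.41 to 0.03). The IL-7 receptor gene Il7r had -0.28 (-0.45 to -0.12), and the survival gene Bcl2 had -0.46 (-0.71 to -0.23). The residency list had a median of 0.09, and its 1 gene past 2-fold was Bhlhe40, with 11 UMIs in members (1.39, 0.49 to 2.49). Within it Itgae, which encodes CD103, was at 70.9 CPM in members and 44.0 CPM in comparison cells (0.68, 0.25 to 1.10). Among cells with Gzma or Gzmb, Itgae went the other way, at 114 CPM in members and 241 CPM in comparison cells (-1.08, -1.90 to -0.35). That value rests on 17 UMIs in members. Cell cycle genes had a median of -0.07 with 0 of 13 past 2-fold, and early activation genes a median of 0.05 with 1 of 17 higher and 1 lower.

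The genes that were lowest in members had few counts. By the rule of at least 10% of cells with a UMI on the higher side, they were led by Aldh9a1 with 7 UMIs in members (9.55 against 26.0 CPM, log2 ratio -1.36, -2.77 to -0.39), Smarcd1, a subunit of a chromatin remodelling complex, with 8 (-1.32) and Zfand5 with 11 (-1.22). The deepest of the 12 was Herc1 with 20 UMIs in members (27.3 against 62.1 CPM, -1.16, -1.91 to -0.55). They belong to none of the lists described. At the other end, the lincRNA Gm47242 stood among the 12 highest with 18 UMIs in members (2.37, 1.78 to 3.44).

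Markers of other cell types were read beside these values. The myeloid gene Lyz2 had 0 UMIs in members, which allows up to 4.09 CPM, and 2.31 CPM in comparison cells. The B cell gene Cd79b was at 27.3 CPM in members and 24.8 CPM in comparison cells, and Ighm at 173 and 171 CPM. Cd74, the class II invariant chain, was at 64.1 CPM in members and 21.3 CPM in comparison cells, but 42 of its 47 UMIs came from 1 member; without that cell it was at 6.90 CPM. The class II genes H2-Aa, H2-Eb1 and H2-Ab1, below the minimum of 50 UMIs, had log2 ratios of 2.28 (1.55 to 3.87), 1.89 (0.91 to 3.63) and 1.86 (0.75 to 4.09). One cell held 8 of the 10 H2-Aa UMIs in members, and 1 cell held all 7 of H2-Eb1 and 1 cell 4 of the 5 of H2-Ab1. A single member had at least 3 of these 4 genes, and its barcode carried at least 2 TRB sequences. Il2ra, the high-affinity IL-2 receptor chain carried by regulatory and freshly activated T cells, had 16 UMIs in 5 members (21.8 against 2.24 CPM, log2 ratio 2.82, 2.31 to 4.21). Cd40lg, a gene of CD4 helper cells, had 15 UMIs in 10 members (20.5 against 7.09 CPM). In the same list of CD4 and regulatory T cell markers, Ikzf2, which encodes Helios, was at 12.3 CPM in members and 16.3 CPM in comparison cells (-0.39, -1.56 to 0.54), and Zbtb7b, the CD4 lineage factor ThPOK, had a log2 ratio of 0.77 (-0.98 to 2.45). Of the dendritic list, Bst2 and Irf8 were measured and both are also interferon targets. The part of other cell types in the results was not tested.

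Receptor sequences from the same barcodes bear on whether a barcode held 1 cell. At least 2 different TRB sequences were found in 32 of 125 members with a receptor (25.6%, 18.2 to 34.2), against 259 of 2684 comparison cells (9.65%, 8.56 to 10.8). By the number of selecting genes the share was 9.39%, 10.7%, 15.5%, 26.2%, 32.5% and 12.5% for 0, 1, 2, 3, 4 and 5 or more. Barcodes with at least 2 TRB sequences may hold 2 cells, and their part in the class was not tested. Such barcodes were deeper, with a median of 7148.5 UMIs in members against 4937 UMIs in members with fewer than 2 TRB sequences. The interferon lists took a median of 1.93% of UMIs in members with at least 2 TRB sequences and 2.30% in members with fewer. Without all such barcodes, 101 members and 2711 comparison cells were left and the median log2 ratio of the interferon lists was 1.15. The granzyme share was then 20.8% of members and 4.39% of comparison cells. At least 2 different receptor alpha (TRA) sequences were found in 28 of 125 members (22.4%, 15.4 to 30.7). The share was 326 of 2684 in comparison cells (12.1%, 10.9 to 13.4). No barcode was removed for its TRA sequences, and their part in the class was not tested.

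Cells with the same nucleotide sequence of CDR3, the loop that contacts antigen, in both TRB and TRA were taken as 1 clone. A clone could be assigned to 75 of 133 members (56.4%, 47.5 to 65.0) and to 1954 of 2970 comparison cells (65.8%, 64.1 to 67.5). The 75 members fell into 74 different clones. Of members with a clone, 4 of 75 were in clones of at least 2 lymph node cells (5.33%, 1.47 to 13.1), against 98 of 1954 comparison cells (5.02%, 4.09 to 6.08). Clones also found in the skin held 2 of 75 members (2.67%, 0.325 to 9.30), against 27 of 1954 comparison cells (1.38%, 0.913 to 2.004). No difference in expansion or in sharing with skin could be detected at these numbers. The 2 members whose clones were shared with skin differed from each other: one had 4 selecting genes, 0 granzyme UMIs and 1 skin cell in its clone, and the other 3 selecting genes, 11 granzyme UMIs and 8 skin cells. Among V segments, counted once per clone, TRBV12-2 was used by 13 of 74 member clones (17.6%, 9.70 to 28.2), against 153 of 1910 comparison clones (8.01%, 6.83 to 9.32), and TRBV3 by 11 of 74 (14.9%, 7.66 to 25.04), against 7.43% (6.30 to 8.70). These were the most used of 18 TRBV calls in members. The next 3 were closer between the groups: TRBV12-2+TRBV13-2, an ambiguous call, was at 9.46% of member clones and 9.01% of comparison clones, TRBV12-1 at 6.76% and 8.01%, and TRBV19 at 6.76% and 5.76%. The 5 TRAV segments most used by members, of 42 seen, held 4.05% to 8.11% of member clones and 1.31% to 5.60% of comparison clones, with overlapping intervals. Segments were chosen for their use in members, so these shares are a description. Between the libraries, 12 lymph node barcodes also occurred in the skin receptor table, 1 of them a member.

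Members were spread over the other states of the lymph node cells. Clustering without 157 genes, which were the selecting genes and listed interferon-related genes, gave 8 clusters, and members were found in each. Genes outside the lists that were higher in members, such as Rnf213 at a log2 ratio of 1.57, were not left out. Their share ran from 1.98% of cluster 5 (8 of 405 cells, 0.857 to 3.85) to 7.49% of cluster 6 (28 of 374, 5.03 to 10.6). Cluster 6 was led by Nrn1, Wnt10a, Cd200, Izumo1r, Ctla4 and Lag3, all of them fixed markers of anergy, and is called anergy-like. Cluster 8, led by Lgals3, Gzma, Itga1, Cx3cr1 and other genes that include Gzmb, was effector-like by its markers and held 14 members among 190 cells (7.37%, 4.09 to 12.1). Cluster 7, led by Stmn1, Klra6, Klre1 and Klra7 and called Ly49-expressing-like for the last 3, held 9 of 299 (3.01%, 1.39 to 5.64). Clusters 6 and 8 were the shallowest, with median UMIs of 3139 and 2716, whereas the other 6 ranged from 3720 to 5165. Without barcodes carrying at least 2 TRB sequences, members were 6.59% of cluster 6 and 5.63% of cluster 8, and 2.06% to 3.35% of the other 6. With at least 4 selecting genes required, cluster 6 kept the highest share at 4.01%, whereas cluster 8 was at 2.11%, below cluster 4 at 2.98% and cluster 1 at 2.17%. The comparison cells of clusters 6 and 8 also carried more of the interferon lists, at medians of 1.67% and 1.64% of UMIs, against 1.12% to 1.37% in the other 6.

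**Figure D5:**
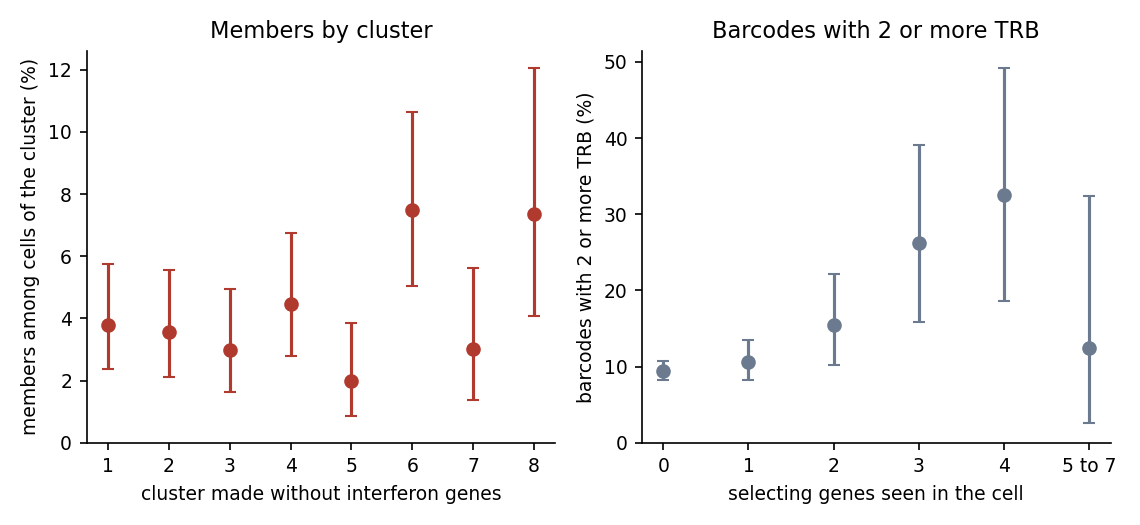
Left, members as a percent of cells in each of 8 clusters made without the 157 selecting and listed interferon-related genes; right, percent of receptor-bearing barcodes with at least 2 TRB sequences by the number of selecting genes seen. Points are shares and bars exact binomial 95% intervals; clusters 6 and 8 lie at 7.49% and 7.37%, and barcodes with 4 selecting genes at 32.5%, against 9.39% with 0.

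The promoter core shown above was counted over the outcome of the comparison. A gene was counted as holding it if any of its promoters did. Of genes with a promoter at hand, 31 of 116 at least 2-fold higher in members held it (26.7%). So did 7 of 272 at least 2-fold lower (2.57%) and 281 of 7161 of all genes compared (3.92%). Counted by promoter and not by gene, the core was present in 3.44% of all 32851 RefSeq promoters searched. Of the 12 highest named genes, 5 had a promoter in the table. Slfn5, Oas1a and Gzma held the core and are shown for that, whereas Isg20 and Irf7 did not. Further down, Bst2 held the core and Gzmb did not. A match describes letters and is not evidence that a factor binds there.

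Slfn5 (chr11:82951927-82952006, plus strand): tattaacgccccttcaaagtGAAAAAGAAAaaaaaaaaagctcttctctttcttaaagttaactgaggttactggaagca

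Oas1a (chr5:120907486-120907565, minus strand): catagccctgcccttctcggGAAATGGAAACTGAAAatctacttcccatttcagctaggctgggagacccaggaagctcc

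Gzma (chr13:113101019-113101098, minus strand): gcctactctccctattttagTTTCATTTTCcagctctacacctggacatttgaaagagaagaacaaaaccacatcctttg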

How the data were processed

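The lymph node table deposited by the authors gives UMI counts (9428 genes, 3266 cells, 14556622 UMIs in all) with the 4 lanes together. Bowtie, RSEM and the build mm10 are named in the submitters' processing notes, without versions. Low genes were absent from the deposited table, whose least widespread gene occurs in 14 cells. Receptor contigs and their UMI counts were deposited separately for node and skin. Skin RNA was not analysed here.

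The members and gene lists were chosen with earlier results of these data known. Counts were summed over members and over comparison cells and scaled to CPM, with a prior of 1 CPM, a minimum of 50 UMIs over both sides and 61 receptor or immunoglobulin segments left out. A gene was called at 2-fold. Intervals are exact (Clopper-Pearson, 95%) and cover counting error only. Lists had 34 names. Named genes are the 12 highest and 12 lowest seen in 10% or more of the cells on the side where they are higher, with the same direction in thinned cells, and the 4 highest and 2 lowest of each list described. Mitochondrial and ribosomal protein genes were not named. Clones needed exactly 1 TRB and 1 or 2 TRA sequences in productive, high-confidence contigs. Doublets were not called, and barcodes with 2 or more TRB sequences were followed instead. Clusters used scanpy 1.11.5 and igraph 0.11.9, with 2000 variable genes, 30 components, 15 exact neighbours weighted by shared neighbours, and a Leiden resolution of 1. This graph replaced a first one whose clusters, already seen, changed with the number of computing threads. Gene names come from the table, and promoters from RefSeq on GRCm38.p6. The summed comparison was checked on simulated counts with known changes. Python 3.11.15, numpy 2.4.6, pandas 2.3.3 and scipy 1.17.1 were used. Alternatives are given in the closing section. Some named genes are not reported here.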

Additional observations from a re-analysis of the deposited data

How the results depend on the processing

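Directions held better than counts. Over 13 alternatives the median log2 ratio of the interferon lists stayed between 0.86 and 1.64, that of the antiviral effectors between 1.04 and 1.68, and that of MHC class I between 0.25 and 0.65, and the effector median ran from -0.10 to 0.46. The highest values were 1.64 and 1.68 for members with 5 or more selecting genes, and 0.65 for class I in cells thinned to 1500 UMIs. The 12 highest named genes stayed at least 2-fold higher in every alternative run on them. There were 11 such alternatives, with Gzma and Gzmb left out of that without granzyme cells. Thinned cells were among the 11, and the same direction there was part of the choice of the 12. Of the 50 named genes at least 2-fold higher, 29 stayed so in every alternative, and 41 stayed above 0.

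The 149 higher and 348 lower genes depended on how many cells and counts stood behind them. They became 237 and 758 with 4 or more selecting genes (69 members), 532 and 1661 with 5 or more (27 members), 74 and 84 with 2 or more (296 members), 903 and 1787 in thinned cells (31 members), 577 and 932 at 1.5-fold, and 63 and 1 with a prior of 10 CPM. Without barcodes with 2 or more TRB sequences, 542 genes were lower.

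Some genes at least 2-fold higher or lower changed sign. With 4 or more selecting genes Gzmk was at -1.36. With 5 or more, Gzmk was at -0.37, Cd40lg at -0.22 and Brf1 at 0.30. In thinned cells, Irf8 was at -3.35, Tlr7 at -2.12, Parp10 at -4.50, Trim34a at -0.63, Gzmk at -3.58, Bhlhe40 at -2.90 and Irf4 at -2.26. These thinned values rest on 31 members with few UMIs, where 3 UMIs of Gbp6 came to 64.5 CPM. With a prior of 1 CPM, a gene with 0 UMIs in those members takes a negative value at any level in comparison cells. Tlr7 was such a gene, seen in 0% of members after thinning. The thinned values therefore cannot show that a gene was lower in members. Without barcodes with 2 or more TRB sequences, Irf4 was at -0.75 and Cd74 at -0.998. Without cells with Gzma or Gzmb, an alternative chosen after seeing the data like the removal of such barcodes before clusters were counted, Gzmk was at -0.31.

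For receptors, a TRB sequence alone gave clones to 69.2% of members and 79.6% of comparison cells, with 10.3% of comparison cells expanded. Contigs of 3 or more UMIs gave clones to 44.9% of comparison cells, with 1.88% expanded, 0.751% also in skin and 7.64% with 2 or more TRB sequences. Among the 31 members of thinned cells, 67.7% had a clone and 9.52% of those were also in skin, 2 of 21. Over the clusters, the highest member share was 1.84 times that of all cells and the lowest 0.485 times. In thinned cells these were 3.20 and 0.182 times. No paired analysis was possible because each tissue is 1 library.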
